A study of Rattus norvegicus with 4 samples.

Results

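Fc receptors are surface proteins that bind the constant part of antibodies. The activating ones signal through adapter proteins that carry an ITAM (immunoreceptor tyrosine-based activation motif), on which a Src family kinase places phosphates that then recruit the kinase Syk. An inhibitory Fc receptor acts against this through phosphatases. In nervous tissue these genes are best known from microglia and macrophages, while olfactory ensheathing cells are the glia of the olfactory nerve. The genes described here are Fc gamma receptors, the ITAM adapters, the kinases Syk and Lyn, the phosphatase Ptpn6 and pleckstrin (Plek), chosen by 9 gene names and found as the gene probes that carry 1 of these names in the array file. The rule found 11 of the 41012 probes, and they stood for 7 of the 35652 genes or transcripts named there. The 3 probes named Fcgr3 belong to the gene now called Fcgr2a in rat, so these 2 names are 1 gene here. No probe was named Fcer1g. A probe that the array file names LOC498279 is described there as similar to the gamma subunit of the IgE receptor, which is what Fcer1g encodes. It is given beside the members and is not counted among them.

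The samples were ensheathing cell cultures from male Fischer rats, divided by flow cytometry on p75, the neurotrophin receptor encoded by Ngfr. On each of 4 arrays, 1 for each biological replicate, the p75High cells carried Cy5 and the p75Low cells carried Cy3, so the ratio on an array is a paired difference. The labels do not say whether replicates were separate animals or cultures (p-values then cover only the spread of these samples, in part perhaps technical). The cDNA of both populations went through a global PCR, per the labels.

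The scanner software marked 22464 to 28062 probes of an array as well above background in p75High and 23044 to 26174 in p75Low. The median SD of a gene's ratio over the 4 arrays was 1.14 on the log2 scale. Ngfr, the sorted gene, had a log2 ratio of 6.07, 6.17, 5.02 and 5.96 on the arrays of replicates 1 to 4, which matched the labels on each array. No array had the dyes exchanged, so a dye effect on a single gene and a difference between the populations cannot be told apart. The number of arrays limits the precision.

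The probe sequences below are shown because the readings of Fcgr2a and Tyrobp come from several probes that differ in place, strand or level, and because the Fc gamma receptor genes lie close together. All are taken from the array file, 5′ to 3′. Capitals mark AATAAA, the hexamer of polyadenylation signals, searched on the probe's own strand.
Fcgr2a A_44_P168405: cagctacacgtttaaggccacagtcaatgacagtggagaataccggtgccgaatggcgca
Fcgr2a A_44_P482476: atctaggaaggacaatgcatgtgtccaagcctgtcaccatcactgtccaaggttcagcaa
Fcgr2a A_43_P12955: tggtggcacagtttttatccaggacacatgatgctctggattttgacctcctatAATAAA
Fcgr2b A_42_P735417: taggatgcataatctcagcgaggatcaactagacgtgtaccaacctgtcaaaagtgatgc
LOC498279 A_44_P1053404: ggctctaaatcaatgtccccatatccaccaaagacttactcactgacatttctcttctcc
Tyrobp A_42_P807697: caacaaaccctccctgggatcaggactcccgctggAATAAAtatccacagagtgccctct
Tyrobp A_44_P526676: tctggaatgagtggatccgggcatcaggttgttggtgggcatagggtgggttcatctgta
Plek A_44_P175530: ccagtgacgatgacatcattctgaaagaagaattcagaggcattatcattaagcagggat

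In the array file's coordinates (rn4), the Fcgr2b probe lies at chr13:86809091-86809150, the Fcgr2a probes lie between 86905963 and 86923192 of chromosome 13 and the LOC498279 probe lies at chr13:87119567-87119626, within 311 kb in all. All Fcgr2a probes are placed on the minus strand. On that strand A_44_P168405 lies 14.6 kb past A_43_P12955, the probe that ends in AATAAA. Whether the Fcgr2a probes read the same transcript, or that of a neighbouring Fc receptor gene, was not tested. A_44_P482476 is placed over 1885 bases although it is 60 bases long, which means that the file aligned it across a gap. The 2 Tyrobp probes are neighbours on chromosome 1, with 8 bases between them, at 85369042 to 85369101 and at 85369110 to 85369169. The file places A_44_P526676 on the minus strand and A_42_P807697 on the plus strand, so these probes read opposite strands. The Plek probe lies at chr14:97853459-97853518 and the Ptpn6 probe at chr4:160843754-160843813. Whether the probes fall in exons or untranslated regions was not analysed here. The 11 member probes were compared with each other and with 4 further probes of Fc receptor genes. No pair shared a run of more than 10 bases on the same strand or 9 on opposite strands. Only probes were compared, so whether a probe also matches the transcript of a related Fc receptor gene was not tested. AATAAA was present in 2 of the 11 member probes, against 4.26% of all gene probes.

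The comparison asked how ensheathing cultures with high and low p75 differ in these genes. By the brightest probe of each gene, Fcgr2a, the adapter gene Tyrobp and Plek were lower in p75High past the threshold, by 23.9-fold to 71.3-fold. The Fcgr2a probes differed, from 7.96-fold to 71.3-fold, and A_43_P12955, which ends in AATAAA, did not pass (adjusted p = 0.135 in limma with 1 row per probe). Whether the 71.3-fold probe reads a neighbouring Fc receptor gene was not tested. For Tyrobp the brightest probe is the one on the minus strand. Lyn, Fcgr2b and Ptpn6 also had negative mean ratios but did not pass, and Syk was not well above background in either population. Of the 7 member genes, 6 passed the filter on dim probes, by which 1 population had to be well above background on 3 or more arrays, and were tested. Of these 6, 3 were lower past an adjusted p of 0.05 in limma, 0 were higher and 3 did not pass. Over all 22192 genes tested, 0.437% were lower past the threshold and 0.311% were higher. At an unadjusted p under 0.05, 5 of the 6 were lower and 0 higher, where 6.91% of all genes were lower. In a fit with 1 row per probe, 5 of the 10 kept member probes were lower past the threshold, against 0.394% of all probes. The median log2 ratio of the 6 genes was -4.06, against -0.03 over all tested genes. Since the genes were chosen with earlier results of these data known, no test of the group was made. In 4 of the 6 genes every p75High intensity lay below every p75Low intensity, which held for 3.85% of all tested genes. In 5 of the 6 the ratio was negative on all 4 arrays, which held for 13.0% of all tested genes. In such sorted populations, fewer cells of a type and less RNA per cell cannot be told apart.

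Each call rests on all 4 arrays. Without any 1 of replicates 1, 2, 3 and 4, limma called 0 of the 6 genes, while 4, 5, 5 and 6 of them had an unadjusted p under 0.05. No gene of the array passed in those fits, in which 1885 to 2374 genes had an unadjusted p under 0.05. The adjusted p of Fcgr2a was then 0.0964 to 0.138, that of Plek 0.0964 to 0.138 and that of Tyrobp 0.103 to 0.159.

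**Figure D1:**
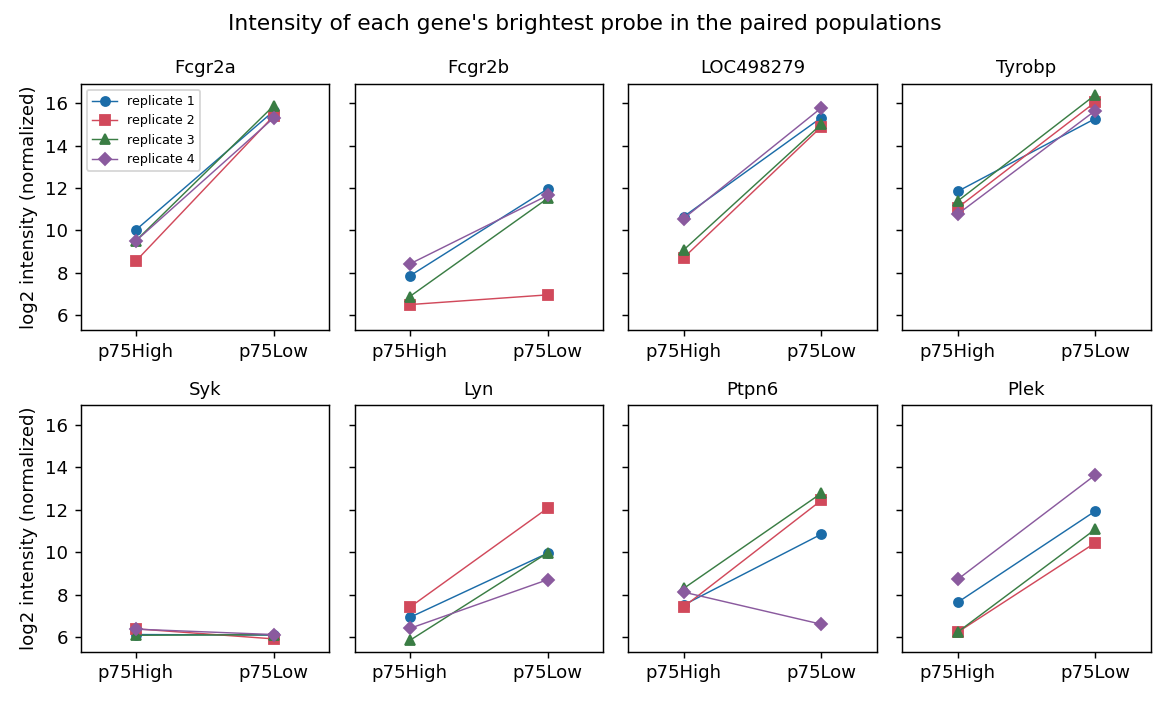
Normalized log2 intensity of the brightest probe of each gene (for Syk, its only probe), with p75High at the left and p75Low at the right of each panel and a line joining the 2 populations of a replicate. All lines of Fcgr2a, LOC498279, Tyrobp, Lyn and Plek rise towards p75Low, the line of replicate 2 is nearly flat for Fcgr2b, that of replicate 4 runs the other way for Ptpn6, and Syk lies near 6 throughout.

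Fcgr2a encodes a low-affinity receptor for IgG. By its brightest probe, its normalized log2 intensity was 10.02, 8.55, 9.51 and 9.50 in p75High, against 15.62, 15.39, 15.88 and 15.30 in p75Low, for replicates 1 to 4. Every p75High reading was below every p75Low reading, and the p75Low readings had an SD of 0.26. The mean log2 ratio was -6.16 ± 0.56 (SD, n = 4 arrays, SE 0.34), a 71.3-fold difference, with an adjusted p of 0.0262 in limma. The probe lies at chr13:86905963-86906022.

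The other Fcgr2a probes were lower as well, by different amounts. A_44_P482476 read 9.89, 8.43, 8.73 and 8.40 in p75High and 15.21, 14.92, 13.98 and 13.70 in p75Low. Its mean log2 ratio was -5.59 ± 0.60 (adjusted p = 0.0262 in limma with 1 row per probe), and replicate 2 stood lowest at -6.49. A_43_P12955, whose sequence ends in AATAAA, read 6.53, 6.54, 7.46 and 7.70 in p75High and 8.09, 10.52, 10.78 and 10.81 in p75Low. Its mean ratio was -2.99 ± 1.03 and did not pass (adjusted p = 0.135), although its groups did not overlap. Thus all 3 probes were negative on all 4 arrays, and the size of the ratio depended on the probe.

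Fcgr2b encodes the inhibitory IgG receptor, which carries an inhibitory counterpart of the ITAM. Its intensity was 7.85, 6.50, 6.88 and 8.42 in p75High, against 11.95, 6.96, 11.51 and 11.65 in p75Low. The p75Low reading of replicate 2 lay below 2 of the p75High readings, so the groups overlapped. The log2 ratios were -4.10, -0.46, -4.63 and -3.23, with a mean of -3.10 ± 1.86 (adjusted p = 0.283). Without replicate 2 the mean was -3.99 (adjusted p = 0.159).

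LOC498279 is described in the file as similar to the IgE receptor gamma subunit, and that subunit is the adapter through which several Fc receptors signal. The LOC498279 probe read 10.65, 8.71, 9.08 and 10.56 in p75High and 15.32, 14.89, 15.01 and 15.78 in p75Low. Its mean log2 ratio was -5.51 ± 0.69, a 45.4-fold difference (adjusted p = 0.0262 in limma). The populations did not overlap, and the p75Low readings of the 4 arrays lay closer together (SD 0.40) than the p75High readings (SD 1.00).

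Tyrobp encodes DAP12, an ITAM adapter of myeloid and natural killer cells. Its brightest probe, A_44_P526676, read 11.84, 11.07, 11.38 and 10.76 in p75High and 15.27, 16.05, 16.39 and 15.65 in p75Low. The mean log2 ratio was -4.58 ± 0.77, a 24.0-fold difference (SE 0.40, adjusted p = 0.0319 in limma). Replicate 1 had the smallest difference, at -3.44, and the other arrays lay between -5.02 and -4.89. The neighbouring probe on the opposite strand, A_42_P807697, read 9.79, 9.76, 9.81 and 9.32 in p75High and 14.33, 15.17, 15.64 and 14.45 in p75Low. Its mean ratio was -5.23 ± 0.54, a 37.5-fold difference (adjusted p = 0.0262 in limma with 1 row per probe). This plus-strand probe holds the AATAAA, while the call and fold of the gene rest on the minus-strand probe A_44_P526676. Which strand Tyrobp is transcribed from was not looked up, so A_44_P526676 may be antisense to the Tyrobp mRNA. Probes on both strands were thus bright in p75Low and lower in p75High on each array. Without the filter on dim probes, Tyrobp did not pass (adjusted p = 0.0596).

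Syk, the kinase that docks on phosphorylated ITAMs, had 1 probe, and it was not well above background in either population on any of the 4 arrays. Its normalized log2 intensity was 6.12, 6.39, 6.08 and 6.37 in p75High and 6.09, 5.91, 6.11 and 6.11 in p75Low. No fold is given, and a difference in Syk was not detectable with this probe, placed at chr17:18441114-18441173.

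Lyn encodes a Src family kinase that phosphorylates ITAMs and inhibitory motifs. Its brighter probe, A_44_P273821, read 6.92, 7.40, 5.84 and 6.40 in p75High, where it was well above background on 3 of the 4 arrays, and 9.95, 12.07, 9.97 and 8.70 in p75Low. The groups did not overlap and the ratio was negative on each array, at -3.03, -4.67, -4.13 and -2.30. The mean of -3.53 ± 1.07 did not pass (adjusted p = 0.0921). It passed with the scanner software's own ratios (-5.42, adjusted p = 0.0416) and with a smaller background offset of 16 (-4.10, adjusted p = 0.0489). The other Lyn probe, A_44_P316239, had a mean ratio of -2.98 ± 1.61 (adjusted p = 0.26), with its largest difference, -4.92, in replicate 1. The probes lie 1 after the other on chromosome 5, at 17052740 to 17052799 and at 17053643 to 17053702.

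Ptpn6 encodes SHP-1, a tyrosine phosphatase of blood cells recruited by inhibitory receptors. It read 7.51, 7.42, 8.29 and 8.12 in p75High and 10.85, 12.45, 12.78 and 6.60 in p75Low. Replicate 4 went the other way, and its p75Low reading was the only 1 of the 4 that was not well above background. The log2 ratios were -3.34, -5.03, -4.49 and 1.52, and the mean of -2.84 ± 2.99 did not pass (adjusted p = 0.433). Without replicate 4 the mean was -4.29 (adjusted p = 0.123).

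Plek encodes pleckstrin, a substrate of protein kinase C in platelets and leukocytes. It read 7.63, 6.22, 6.23 and 8.71 in p75High, against 11.94, 10.44, 11.08 and 13.64 in p75Low. Both populations were highest in replicate 4 and lowest in replicate 2, while the ratio stayed between -4.93 and -4.22. The mean log2 ratio was -4.58 ± 0.36, a 23.9-fold difference (SE 0.30, adjusted p = 0.0262 in limma). Its SD was the smallest of the 6 tested genes. With the scanner ratios the mean was -5.59 (adjusted p = 0.0296).

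**Figure D2:**
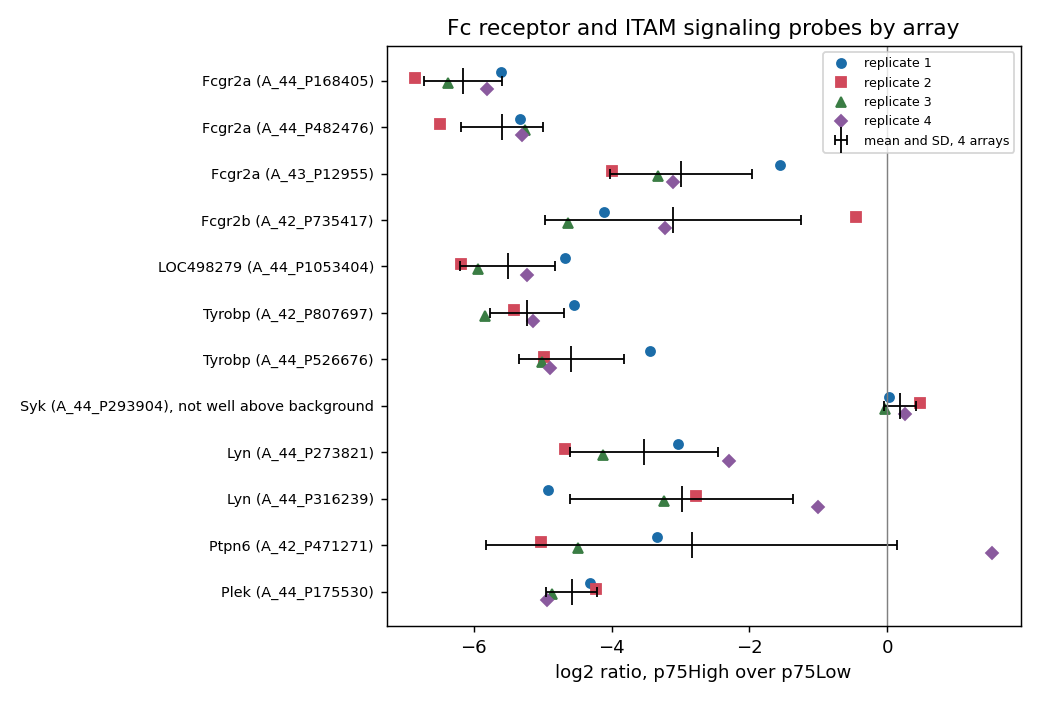
Log2 ratio of p75High over p75Low for each probe (rows) and array (symbols), with the mean and SD over 4 arrays in black. All 3 Fcgr2a probes, both Tyrobp probes, both Lyn probes, Plek and LOC498279 are negative on all arrays, Ptpn6 is at 1.52 in replicate 4, and the Syk probe, which is not well above background, lies around 0.

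By array, the median ratio of the 6 tested genes was -3.77, -4.83, -4.74 and -4.06 for replicates 1 to 4, and the median over all genes was between -0.02 and 0.00. The ratio was negative for 6, 6, 6 and 5 of the 6 genes. Low values were present on each array, and the exceptions were Fcgr2b in replicate 2 and Ptpn6 in replicate 4.

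Other genes of the pathway were drawn from 4 lists with 81 names, of which 49 genes were tested. In limma, 2 of the 49 were lower past the threshold, 0 were higher and 47 did not pass. At an unadjusted p under 0.05, 17 were lower and 4 higher. Over all tested genes, 0.437% were lower and 0.311% higher past the threshold, and 6.91% were lower at the unadjusted p. The share of all genes higher at the unadjusted p is not given here. The median log2 ratio of the 49 was -1.23. The 2 lower genes were both inhibitory receptors. Lilrb4, an inhibitory receptor of the leukocyte immunoglobulin-like family, read 7.12, 6.05, 6.58 and 6.94 in p75High and 12.21, 10.27, 11.94 and 10.72 in p75Low, and was well above background in p75High on 2 of 4 arrays (mean ratio -4.62 ± 0.74, adjusted p = 0.0313). Sirpa, the receptor for the don't-eat-me signal CD47 on myeloid cells, read 9.43, 8.90, 8.63 and 8.83 in p75High and 12.52, 13.14, 13.11 and 11.92 in p75Low (mean ratio -3.72 ± 0.74, adjusted p = 0.0494). Neither gene overlapped between the populations, and 3.85% of all tested genes had every p75High intensity below every p75Low intensity. Lilrb4 met the filter on dim probes through p75Low only, so its ratio is in part set against background. Sirpa did not pass with no background correction (adjusted p = 0.0513), with 1 row per probe (0.0515), with the scanner ratios (0.0641) or without the filter (0.0848), and Lilrb4 did not pass without the filter (0.0575). No pathway gene passed without any 1 of replicates 1 to 4. In those fits 10 to 14 were lower at an unadjusted p under 0.05, and the share of all genes lower in them is not given here.

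Among 8 tested activating receptors and adapters, 0 passed in limma (3 lower and 1 higher at an unadjusted p under 0.05), with a median ratio of -1.11. Fcrl2, of the Fc receptor-like family, had a mean ratio of -5.21 ± 1.73 (adjusted p = 0.0925) with values from -6.51 to -2.82. Trem2, a lipid-sensing receptor that pairs with Tyrobp, had -2.05 ± 1.48 (adjusted p = 0.34), with -0.38 in replicate 1 and -3.39 in replicate 3. The remaining Fc gamma receptor genes, chosen after their values were seen, varied between arrays. Fcgr1a, the high-affinity IgG receptor, had ratios of -3.00, -2.90, 0.23 and -2.34 (adjusted p = 0.351), and Fcgr3a had -4.37, -2.19, 0.59 and -4.89 (adjusted p = 0.394). Replicate 3 was the positive array for both, while a dimmer Fcgr1a probe was positive in replicate 4 (1.32).

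Ratios of the kinases and their regulators spread to both sides of 0, while those of the downstream genes lay mostly below it. Of 10 tested Src and Syk family kinases and their regulators, 0 passed (2 lower and 2 higher at an unadjusted p under 0.05), with a median ratio of 0.10. Ptprj, a receptor phosphatase, had -3.27 ± 1.17 (adjusted p = 0.132) by its brightest probe and 0.08 by its other kept probe. Of 27 tested downstream genes, 0 passed, with a median of -1.30. At an unadjusted p under 0.05, 9 of them were lower and 1 higher, where 6.91% of all tested genes were lower. Skap2, a Src-associated adapter, had -4.90 ± 1.24 (adjusted p = 0.0548), and Vav1, a signaling protein of blood cells, had -3.74 ± 1.03 (adjusted p = 0.0739) and was well above background in p75High on 2 arrays. With the scanner ratios Vav1 passed, at -5.42 (adjusted p = 0.0358), and Lilrb4 was at -6.28.

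**Figure D3:**
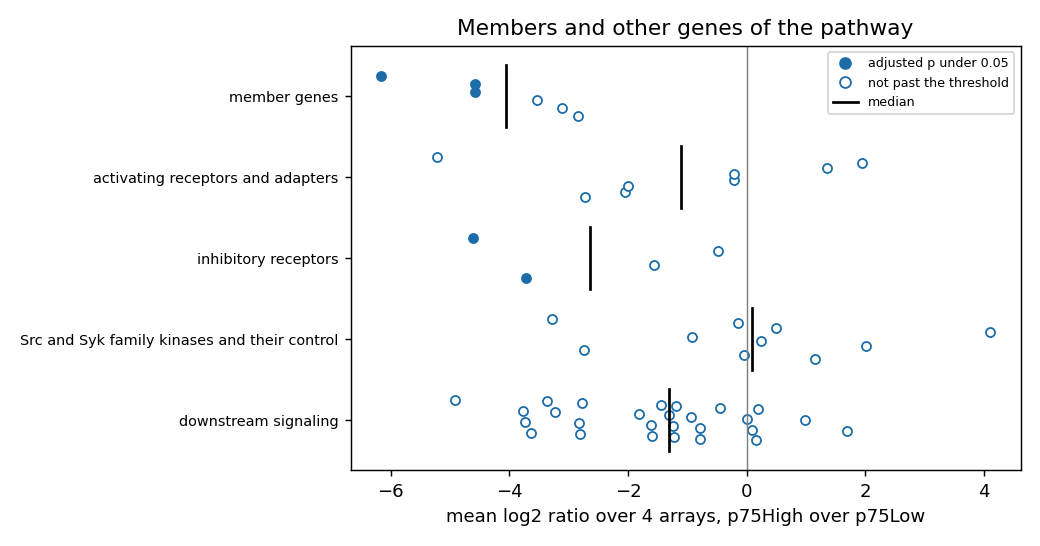
Mean log2 ratio over 4 arrays of each tested gene in the members and in 4 lists of other pathway genes (rows), filled where the adjusted p was under 0.05, with the median as a black bar. The members' median is -4.06, that of the inhibitory receptors -2.64, and that of the Src and Syk family kinases and their control 0.10.

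Genes whose 4 array ratios were closest to those of the member Tyrobp, or of LOC498279, which is not a member, were sought. They were ranked among 10594 genes with a gene symbol, by the root mean square difference over the 4 arrays. This is a description of likeness over 4 arrays that share both dyes and 1 slide. Closest to Tyrobp, by its minus-strand probe A_44_P526676, were Synj1 (0.29), Pnp (0.43), Dnase2 (0.44), Slc38a7 (0.47) and Ap2m1 (0.51). Closest to LOC498279 were Lyz2 (0.23), Aif1 (0.24), Adgre1 (0.38), Ctsz (0.38) and Fh (0.48). Lyz2 encodes lysozyme of myeloid cells, with a mean ratio of -5.54 ± 0.73, and Aif1 encodes the microglial protein IBA1, with -5.36 ± 0.62.

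Marker genes of macrophages moved with the members. Of 13 tested microglia and macrophage markers, 8 were lower in p75High past the threshold, 0 were higher and 5 did not pass. Over all tested genes, 0.437% were lower past it. The median ratio of the 13 markers was -4.56. Ctss (-6.11), Csf1r (-6.08), Adgre1 (-5.87) and Itgam (-5.77) had the largest ratios among them, although the other probes of Csf1r read -0.25 and 0.41. The summed intensity of this list ran from 5764 to 9447 over the p75High samples and from 165761 to 300272 over the p75Low samples. All 14 listed markers of ensheathing and Schwann glia passed the filter on dim probes. The 13 other than Ngfr ran the other way in sum, from 22500 to 32949 in p75High and from 3230 to 15710 in p75Low, with 0 past the threshold in limma, 2 higher at an unadjusted p under 0.05 and a median ratio of 0.23. The part of these cell types in the ratios of the Fc receptor and adapter genes was not tested.

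Markers of other blood cells that use ITAM signaling did not pass in limma. For T and natural killer cells the sum was 756 to 2429 in p75High and 860 to 1350 in p75Low (0 of 5 passed, 0 at an unadjusted p under 0.05), where Cd3d read -0.39 ± 0.35 and Nkg7 0.58 ± 1.23. The B cell list had 1 tested gene, Cd79b, at 0.09 ± 0.83, and its sum was 132 to 319 in p75High and 142 to 238 in p75Low. Mast cell markers summed to 6880 to 10810 in p75High and 2903 to 6354 in p75Low (0 of 4 passed, 2 higher at an unadjusted p under 0.05), with Kit at 1.65 ± 0.65 (3.32 with the scanner ratios), and Cma1 was well above background in p75Low on 1 of 4 arrays, so its ratio of 0.81 ± 0.20 (2.60 with the scanner ratios) is set against background. Fcer1a, Ms4a2 (both also in the list of activating receptors) and Cpa3 were too dim to be tested. Neutrophil markers summed to 594 to 1540 in p75High and 697 to 4205 in p75Low (0 of 4 passed, 1 lower and 1 higher at an unadjusted p under 0.05), with Csf3r at -3.29 ± 2.20 and Camp at 0.87 ± 0.38. Platelet markers summed to 994 to 2463 in p75High and 1050 to 49189 in p75Low (0 of 2 passed, 0 at an unadjusted p under 0.05), with Treml1 at -1.38 ± 2.88 and Gp9 at -0.19 ± 0.93. The highest p75Low sum came from Treml1 in replicate 4, at a log2 intensity of 15.52, and without that replicate the Treml1 ratio was -0.07. Fibroblast markers summed to 60635 to 84229 in p75High and 13284 to 34944 in p75Low (0 of 6 passed by the brightest probe, 2 lower and 2 higher at an unadjusted p under 0.05), with Postn at 4.80 ± 1.60 and Col1a1 at 2.73 ± 1.20. In limma with 1 row per probe, the Col1a1 probe A_44_P238421 read 3.79 and passed (adjusted p = 0.0363). The Col1a1 probe A_44_P350521 read 3.56 and did not pass (adjusted p = 0.204). The median ratio of this list was -0.94, opposite in sign to the difference in sums, and the other 4 genes, given with their values seen, were Col1a2 at -2.71 ± 1.48, Col3a1 at -2.42 ± 3.91, Thy1 at -0.99 ± 0.38 and Fn1 at -0.89 ± 2.00. The other kept Col1a2 probe read -0.91.

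**Figure D4:**
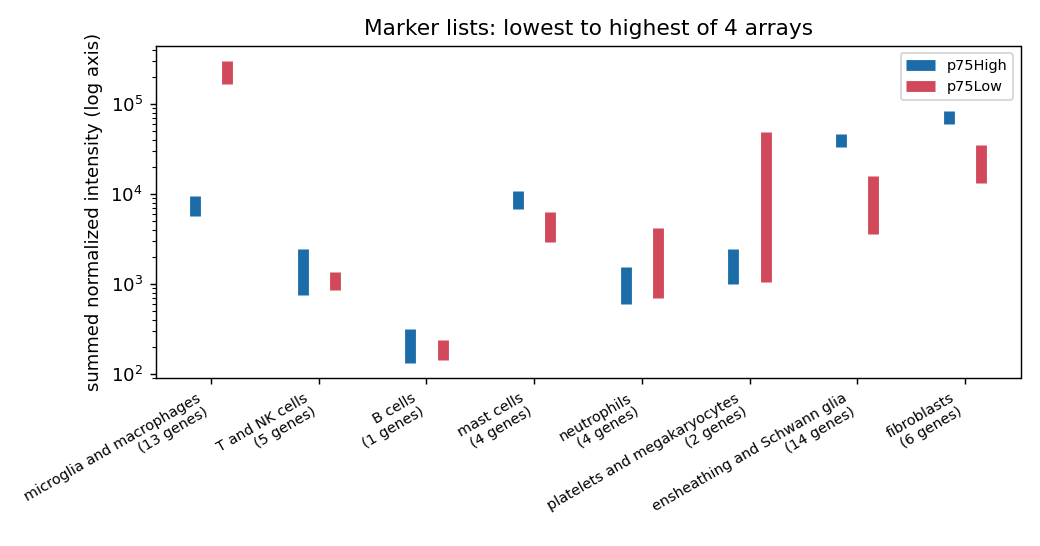
Summed normalized intensity (log axis) of the tested genes of each marker list, as bars from the lowest to the highest of the 4 arrays, p75High left of p75Low. The microglia and macrophage list is at 5764 to 9447 in p75High and at 165761 to 300272 in p75Low, and the ensheathing and Schwann list, drawn with Ngfr, is higher in p75High.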

How the data were processed

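Per the file headers, the 4 arrays of Agilent rat design 014879 were on 1 slide and read with Feature Extraction 10.5.1.1 (10.5 in the submitters' processing notes), with coordinates on rn4. The deposited intensity values were mean spot and median local background brightness without normalization. Log10 ratios (Cy5 over Cy3) come from the scanner software, per the file headers, and the authors' value table held the same log10 ratios (largest difference 0, median 0 in each column). The scanner's flags, per the file headers, are 0 or 1, and 1112 of 173516 gene spot readings flagged as outliers were left out.

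In limma 3.58.1 under R 4.3.3, background was corrected by normexp with an offset of 50, and loess with a span of 0.3, control spots at weight 0, normalized each array. Summaries and figures used Python 3.11.15. Repeat spots were averaged. Probes were kept when 1 population was well above background on 3 or 4 arrays (24941), and the brightest stood for its gene (22192 genes). Log2 ratios were tested against 0 with lmFit and eBayes, two-sided, with Benjamini-Hochberg adjustment over all genes and a threshold of 0.05. Levels per population are log2 intensities after quantile normalization of average intensity between arrays. Names were updated with RefSeq genes of GRCr8: 10835 probes matched by accession, 5201 by symbol, 3488 by older symbol, and 21488 kept the file's name. The channels are paired by array, per the labels' design text; after removal of population means, channels of the same array correlated across genes at 0.13, 0.06, 0.07 and 0.26, and at most 0.05 with another array. The fit was tested on simulated data.

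The members, lists, tests and alternatives were chosen with earlier results of these data known. Named were all members, Ngfr, the genes past the threshold in each list (up to 8 in a pathway list and 4 in a marker list) or else the 2 with the smallest p, and the 5 genes closest in pattern to Tyrobp and to LOC498279, which stood in for Fcer1g. A gene that this rule took is not reported here.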

Additional observations from a re-analysis of the deposited data

Results flagged for a closer look

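Of 52 sets of 4 ratios examined, 3 had 1 array far from the rest, and about 1 in 20 would by chance. A few such sets would thus come by chance alone, and the 3 are given as description only. Ptpn6, with 1.52 in replicate 4 and -5.03 to -3.34 on the other arrays, was not among them. For the Fcgr2a probe A_44_P482476 it was replicate 2 at -6.49, with the other arrays between -5.33 and -5.25. For the Tyrobp probe A_44_P526676 it was replicate 1 at -3.44, where the other arrays lay between -5.02 and -4.89. For the Fcgr1a probe A_44_P189496, outside the members, replicate 4 was at 1.32 while the remaining arrays had ratios of -3.83 to -3.30.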

How the results depend on the processing

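The 6 tested members kept a negative mean ratio in all alternatives run. Calls of all genes were 97 lower and 69 higher. They were 52 lower and 37 higher with no filter on dim probes, 156 and 152 with no replicate block (the pairing ignored) and 154 and 111 with the scanner ratios. Without any 1 replicate both were 0 (0 to 0). The 3 members lower past the threshold became 2 without the filter, 4 with the scanner ratios or the offset of 16, and 0 without any 1 replicate. With no replicate block 3 were called. The 2 lower pathway genes became 0 with no filter, 1 with no background correction or 1 row per probe, 3 with the stricter filter or the offset of 16, 4 with no replicate block, and 0 without any 1 replicate. Ratios near 0 changed sign for Gp9 (0.028 with median centring, -0.54 to 0.12 without 1 replicate) and Cd79b (-0.26 to 0.41 without 1 replicate). The cause was not tested, except that a fit without a replicate has fewer arrays. The exact sign-flip permutation test of a single gene cannot go below 0.125 with 4 arrays. Readings near background limit Syk, and the p75High levels of Lyn (well above background on 3 of 4 arrays), Lilrb4 and Vav1 (on 2 of 4). Lilrb4 and Vav1 met the filter on dim probes through p75Low only.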
